A study of Homo sapiens with 9 samples.

Results

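The mRNA of CA46 cells carrying an shRNA against MYC was compared with that of CA46 cells carrying a non-targeting control shRNA (NTC), both kept in dimethyl succinate (DMS). CA46 is an established human B lymphocyte line from a Burkitt lymphoma, a tumour in which a translocation drives MYC from an immunoglobulin locus. The comparison rests on 2 of the 4 RNA-seq libraries of the series, 1 library for each shRNA, and was described across 11178 genes of the 23188 named genes in the tables, those that averaged 1 FPKM or more across the 4 libraries. FPKM counts sequenced fragments relative to gene length and to the total of the library. The remaining 12010 genes lay under this filter, and 7275 of them were listed at 0 in both DMS libraries. Both populations were infected with the virus for 48 h and held in 10 mM DMS for the 20 h before harvest. The other RNA-seq pair had the same viruses in PBS in place of DMS, shares no library with the DMS pair, and is set beside it throughout. The whole series has 9 samples, of which 4 ChIP-seq samples of the promoter mark H3K4me3 and 1 input sample were not analysed here. The shRNA sequence, the number of infected cells and any selection of them were all not given in the sources used here.

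MYC is a transcription factor that binds the E-box sequence together with its partner MAX and raises transcription of genes for ribosome assembly, nucleotide synthesis, mitochondrial function and cell division. In B cells, high MYC also goes with low expression of genes for antigen presentation and interferon responses. Succinate is the substrate of succinate dehydrogenase (SDH), an enzyme of the TCA cycle and complex II of the respiratory chain, and its methyl ester DMS crosses membranes and releases succinate in the cell. Succinate also inhibits dioxygenases that use 2-oxoglutarate, among them histone and DNA demethylases, and the study asked whether succinate can act on promoter histone methylation and expression in cells with less MYC.

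With 1 library in each group there was no replicate check, no p-value was computed, and differences are given as values only. A gene counted as higher or lower when the knockdown and control libraries differed at least 2-fold, on log2(FPKM + 1) of rescaled values, a scale that understates the change of low genes. Where a pair of FPKM values follows a gene, the control comes first and the medium is DMS unless PBS is named, and a single signed value is the log2 ratio in DMS. The sequencing depth was not stated. The steps between low values put 1 FPKM at 23.0 to 25.7 fragments per kilobase across the 4 libraries. All 6 B cell markers listed were present, with the B cell receptor chain CD79A at 708 FPKM in control and 1576 FPKM in knockdown, the surface protein MS4A1 at 157 and 646 FPKM and the B cell factor PAX5 at 43.2 and 88.3 FPKM. Of 18 T and NK cell markers, 12 lay under 1 FPKM in both DMS libraries, and CD8A, CD8B and TRAT1 were listed at 0. Rows with no gene name took 14.3% of the summed FPKM in control and 22.4% in knockdown in DMS, and these rows were left out; their part in the results was not tested.

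MYC, the target of the shRNA (chromosome 8, 128748315 to 128753680, hg19), stood at 1651 FPKM in the control library and at 625 FPKM in the knockdown library in DMS, and at 1868 and 17.1 FPKM in the pair in PBS. The knockdown library in DMS therefore held 37.9% of the MYC mRNA of its control, against 0.913% in PBS (log2 ratios of -1.40 and -6.69). These are bulk libraries, in which fewer cells that lost MYC and less loss of MYC mRNA per cell cannot be told apart. Within the MYC network, 9 of 13 members passed the filter and MYC alone was past 2-fold in DMS. The partner MAX stood at 67.1 FPKM in control and 74.1 FPKM in knockdown, and the list had a median log2 ratio of -0.08.

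Over all 11178 genes, 1075 genes were called higher in the knockdown in DMS, 9.62% of those compared, and 398 were called lower, 3.56%. In PBS the same rule called 1609 genes higher, 14.4%, and 1894 genes lower, 16.9%. The median log2 ratio over all genes was -0.00 in DMS, with quartiles of -0.42 and 0.45. Without rescaling of the deposited values the DMS counts became 910 higher and 674 lower, so that 57.4% of the calls were higher against 73.0% after rescaling. The deposited scaling shifts the median of all genes to -0.10, and among the gene lists below it turns the sign of the medians of the p53 pathway and of the H3K4 methylation machinery, both within 0.06 of 0. The list medians below are each to be read against a median of about 0 for all genes. Counts of higher and lower members are to be read against the 9.62% and 3.56% of all genes. Some genes are in more than 1 list, such as HSPD1 and TOMM40 among MYC-activated targets and mitochondrial import genes. Counts of different lists are therefore not independent. In any list a low gene that passes the filter through the knockdown libraries is bound to be higher, so counts of higher members speak only for the genes that passed.

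**Figure D1:**
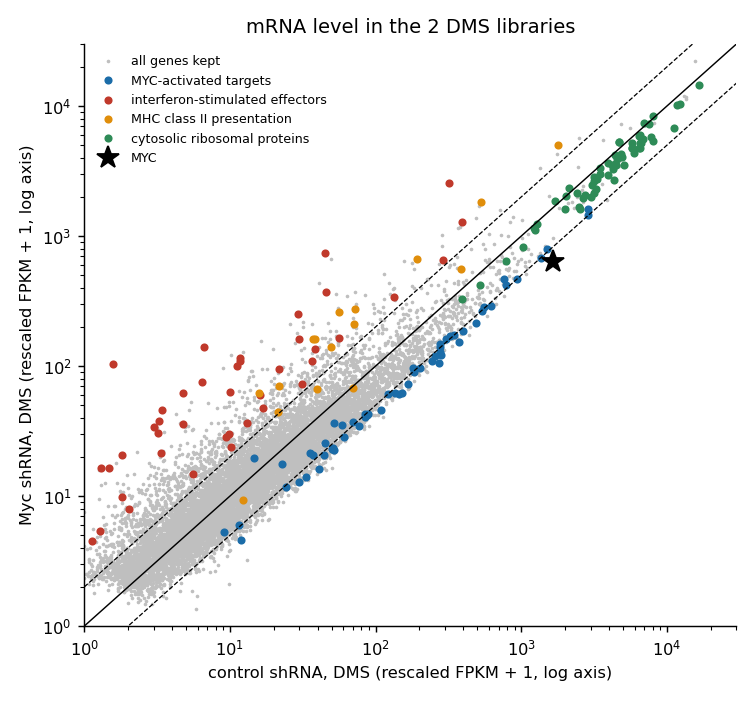
Rescaled FPKM plus 1 of each of the 11178 genes in the control library (horizontal, log axis) and the Myc shRNA library (vertical, log axis), both in DMS; dashed lines mark a 2-fold difference and coloured points are members of 4 lists and MYC. MYC-activated targets lie along the lower dashed line, cytosolic ribosomal proteins near the diagonal, and the interferon-stimulated effectors all above the upper dashed line.

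The spread of the ratios differed between the sides. In DMS 177 genes reached 4-fold on the higher side and 3 on the lower side, and 37 and 0 reached 8-fold. In PBS the lower side held more of these genes, with 247 genes at 4-fold or more above control and 415 below it, and 7 and 78 at 8-fold. Log2 ratios ran from -2.24 to 6.04 in DMS and from -6.76 to 3.44 in PBS. Most genes called in DMS were also called in PBS, whereas 569 genes were higher and 1503 lower in PBS alone. Of the 1075 genes higher in DMS, 1040 were also higher in PBS (96.7% of the DMS calls and 64.6% of the PBS calls). Among the 398 lower genes, 391 were also lower in PBS, which is 98.2% of the DMS calls but 20.6% of the PBS calls. No gene was called in opposite directions (0 of 11178).

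Among genes of at least 20 FPKM in the control, the lower side in DMS ended at about the level of MYC itself. Among 3939 genes with at least 20 FPKM in the DMS control, 0 lay under 30% of control in the knockdown, 2 under 35%, 32 under 40% and 331 under 50%. Among the 4066 genes with this level in the PBS control, 523 lay under 30% and 228 under 20%. Taking the 55 genes that had at least 20 FPKM in both controls and were under 10% of control in PBS (median 6.80%), their knockdown level in DMS was a median of 40.4% of control, with an interquartile range of 38.7% to 42.7% and an SD over genes of 3.55 percentage points. Of these 55 genes 25 lay under 40% in DMS, and 1 of them, SNHG9, lay above 50%. The percent left in DMS followed the percent left in PBS: it was a median of 41.2% for 40 genes at 5% to 10% in PBS, 51.4% for 291 genes at 20% to 30%, 64.1% for 357 genes at 40% to 50% and 79.0% for 644 genes at 60% to 80%. For 802 genes between 80% and 120% of control in PBS the median was 96.7% in DMS. MYC mRNA itself lay at 37.9% of control in DMS and 0.913% in PBS, and its part in the pattern was not tested.

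**Figure D2:**
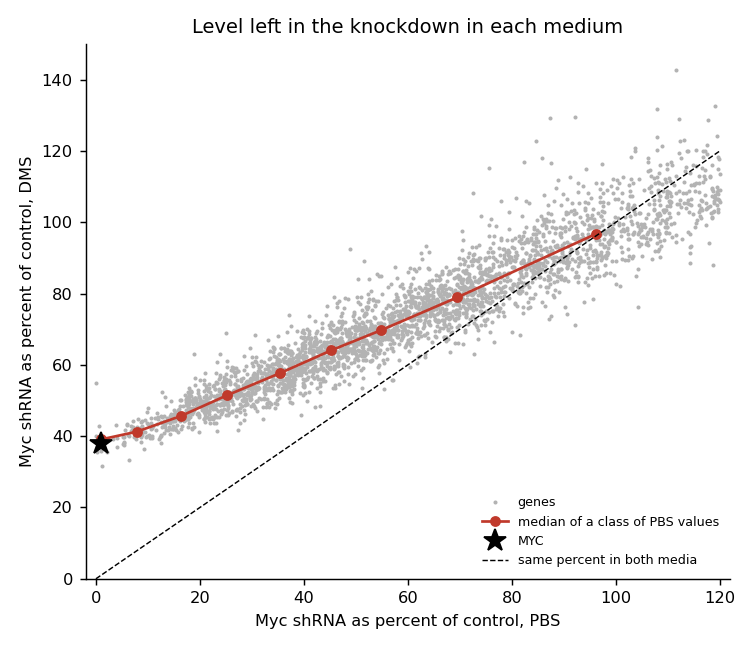
Knockdown level as a percent of control in PBS (horizontal) and in DMS (vertical) for genes with at least 20 FPKM in both control libraries; each grey point is a gene, the red line joins the medians of classes of PBS values, the star is MYC and the dashed line marks equal percents. The red line starts near 39.1% in DMS where the PBS value is near 0.951% and comes close to the dashed line where both values are near 96%.

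Among genes with at least 20 FPKM in the DMS control, those with the lowest percent of control were drawn from several processes. GALNT18, a glycosyltransferase that starts O-linked glycans, stood at 49.1 and 15.5 FPKM in DMS and 39.7 and 0.484 FPKM in PBS, control before knockdown, and so kept 31.5% of control in DMS. TEAD4, the DNA-binding partner of the Hippo pathway coactivators, kept 33.2%, and CBS, the enzyme that makes cystathionine from homocysteine, kept 35.6% in DMS and 0.277% in PBS. HPDL, a mitochondrial dioxygenase-like protein, stood at 112 and 39.9 FPKM in DMS and 111 and 2.33 FPKM in PBS. The list went on with KISS1R, the kisspeptin receptor, at 36.0%, the pterin enzyme SPR at 36.1%, the mitochondrial dicarboxylate carrier SLC25A10, which transports succinate, at 36.3%, and the folate enzyme MTHFD1L at 36.9%. Each of these had less than 10% of control in PBS.

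Genes of lower level gave the lowest log2 ratios. IQCH-AS1, an antisense RNA, stood at 8.90 and 1.09 FPKM in DMS and 11.5 and 0.332 FPKM in PBS (log2 ratio -2.24 in DMS), the lowest ratio of the genes compared. Its reads cannot be told from those of the gene on the other strand, since the strand setting of the counting is not given in the sources used here. Among genes with at least 5 FPKM in either DMS library, the histone gene HIST1H2AL followed at -2.02, then GALNT18 at -1.61, LINC00235 at -1.57 and TEAD4 at -1.53. SLC7A5P1, at -1.47, is a pseudogene of the amino acid transporter gene SLC7A5 and may hold reads of it. Some genes that were all but lost in PBS kept much of their mRNA in DMS. The neuropeptide gene GAL stood at 51.0 and 20.4 FPKM in DMS and 57.9 and 0 FPKM in PBS, the argininosuccinate synthase ASS1 at 103 and 40.8 FPKM in DMS and 79.0 and 0.557 FPKM in PBS and NPW, which encodes neuropeptide W, at 37.1 and 15.9 FPKM in DMS and 41.6 and 0.273 FPKM in PBS. SNHG9, a small nucleolar RNA host gene that overlaps another gene, stood at 82.0 and 44.9 FPKM in DMS and was listed at 0 in the knockdown in PBS.

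Genes that MYC is known to activate formed the lowest list. All 57 listed MYC-activated targets passed the filter, 34 were lower and 0 higher in DMS, against 3.56% of all genes lower, and the median log2 ratio was -1.03 (-2.33 in PBS, with 55 lower). SRM, the spermidine synthase, stood at 270.04 and 104 FPKM in DMS and 304 and 26.6 FPKM in PBS. TRAP1, a mitochondrial chaperone, stood at 373 and 151 FPKM in DMS and 373 and 29.9 FPKM in PBS, and PAICS, a purine synthesis enzyme, had log2 ratios of -1.30 in DMS and -3.21 in PBS. In each of these genes the DMS knockdown lay below both controls and above the PBS knockdown. The palindromic E-box CACGTG, bound by MYC and MAX, was searched in RefSeq promoters (GRCh38.p14, 250 bases before to 50 after the start site). It was found in 21 of 52 promoters of MYC-activated targets (40.4%), in 72 of 322 promoters of genes lower in DMS (22.4%), in 59 of 796 of genes higher (7.41%) and in 966 of the 9010 promoters of all genes compared (10.7%), the set that the called genes come from. Over all 27305 promoters of the table the share was 7.43%. Since 34 of the MYC-activated targets are among the genes lower in DMS, the shares of these 2 sets overlap. A match is a description of the letters and not a bound site. Shown are promoters of 2 of the lowest targets with an E-box, SRM (chr1:11059969-11060268, minus strand) and EXOSC5, an RNA exosome subunit (chr19:41397310-41397609, minus strand, log2 ratio -1.25), both GRCh38.p14, written 5′ to 3′ on the gene's strand with CACGTG in capitals:
SRM: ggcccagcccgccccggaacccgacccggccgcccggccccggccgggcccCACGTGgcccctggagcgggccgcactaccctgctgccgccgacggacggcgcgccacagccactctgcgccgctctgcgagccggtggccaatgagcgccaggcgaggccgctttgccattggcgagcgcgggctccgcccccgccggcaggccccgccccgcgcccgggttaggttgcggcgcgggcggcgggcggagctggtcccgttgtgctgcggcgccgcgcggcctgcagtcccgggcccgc
EXOSC5: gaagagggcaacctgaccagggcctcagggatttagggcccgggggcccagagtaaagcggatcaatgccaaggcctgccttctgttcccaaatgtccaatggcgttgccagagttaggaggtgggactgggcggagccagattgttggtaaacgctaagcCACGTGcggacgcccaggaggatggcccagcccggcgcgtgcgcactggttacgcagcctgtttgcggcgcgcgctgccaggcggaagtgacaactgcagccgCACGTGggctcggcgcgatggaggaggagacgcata
The E-box of SRM starts 199 bases before the start site, and those of EXOSC5 start 89 bases before and 14 bases after it.

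Genes for ribosome assembly lay below control together. Of 54 nucleolar assembly factors 13 were lower and 0 higher, with 53 below 0 and a median of -0.81 (-1.59 in PBS). NLE1, which matures the large subunit, stood at 41.0 FPKM in control and 16.5 FPKM in knockdown, LYAR, a nucleolar protein, at 52.6 and 21.7 FPKM, and BOP1, part of a complex for 28S rRNA processing, at 129 and 55.3 FPKM. RNA polymerases I and III had a median of -0.55. Of 29 members 1 was lower, beside 3.56% of all genes, POLR1C, a subunit of both (59.7 and 27.4 FPKM). By contrast, 0 of 59 cytosolic ribosomal proteins were past 2-fold in DMS and their median was -0.26, also nearer 0 than in PBS (-0.40). Reads of ribosomal protein genes can be shared with their many pseudogenes, and levels of single members are uncertain for that reason. Among 51 translation factors 1 was lower, beside the same 3.56% of all genes. It was EIF4A3, an RNA helicase of the exon junction complex (226 and 110.2 FPKM), and the list median was -0.45. Of 20 tRNA synthetases 2 were lower, FARSB for phenylalanine (-1.20) and VARS for valine (-1.14).

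The spliceosome, the chaperones and the proteasome lay along the same order of size. Of 36 spliceosome proteins 1 was lower, beside 3.56% of all genes. It was SNRPF, a core protein of the small nuclear ribonucleoproteins (352 FPKM in control and 165 FPKM in knockdown), and the list median was -0.68. Cytosolic chaperones had a median of -0.64, and 2 of 27 were lower, the HSP90 cochaperone FKBP4 (128 and 53.9 FPKM) and BAG2 (-1.04). The proteasome median was -0.32. Of its 42 members 1 was higher, beside 9.62% of all genes, the interferon-inducible catalytic subunit PSMB9 (102 and 263 FPKM), and 0 were lower. Genes of the unfolded protein and integrated stress responses gave 0 calls in 26 members and a median of -0.23.

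Genes for the synthesis of nucleotides and amino acids lay below control. Of 24 purine and pyrimidine enzymes 9 were lower and 0 higher, with a median of -0.93 (-1.83 in PBS, 22 lower). PFAS, an enzyme of the purine pathway, stood at 49.2 FPKM in control and 21.5 FPKM in knockdown, and IMPDH2, which commits IMP to guanine nucleotides, at 292 and 133 FPKM. In the serine and folate list 5 of 17 members were lower. MTHFD1L, which makes formate in mitochondria, stood at 27.1 FPKM in control and 10.0 FPKM in knockdown, PHGDH, the first enzyme of serine synthesis, at 144 and 58.3 FPKM, and PSAT1, the next one, at 69.5 and 30.04 FPKM. Of 15 genes for arginine, proline and transsulfuration 4 were lower, led by CBS (-1.43), ASS1 (-1.31) and the proline enzyme PYCR1 (-1.25).

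The polyamine list held calls in both directions. In it SRM (-1.37) and DOHH, which completes the hypusine of the translation factor EIF5A (-1.02), were lower, whereas SAT1, the acetyltransferase that starts polyamine breakdown, was higher (11.2 FPKM in control and 128 FPKM in knockdown), as was the polyamine oxidase PAOX (3.96 and 9.48 FPKM). Among 15 amino acid transporters 5 were lower and 0 higher, with a median of -0.08. SLC7A5, the large neutral amino acid transporter, stood at 154 and 61.6 FPKM in DMS and 159 and 10.2 FPKM in PBS. The arginine transporter SLC7A1 was at -1.24 and the glutamine transporter SLC38A5 at -1.19.

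Mitochondrial genes were mostly below control, and fewer of them reached 2-fold than in PBS. Mitochondrial import and folding genes had a median of -0.77 with 7 of 32 lower. HSPD1, the mitochondrial chaperonin, stood at 489 and 214 FPKM in DMS and 555 and 54.2 FPKM in PBS, and TOMM40, the import channel of the outer membrane, was at -1.15. Mitochondrial ribosomal proteins had a median of -0.61 with 6 of 64 lower, against 39 of 64 in PBS. MRPL4 (-1.17), MRPS2 (-1.10) and MRPL12 (-1.07) were the lowest of them. In the electron transport chain 1 of 53 members was lower, beside 3.56% of all genes, the ATP synthase subunit ATP5G1 (761 and 345 FPKM). Of the 53 members 52 lay below 0, and the median was -0.54. The list of 35 genes for the TCA cycle and pyruvate entry gave 0 calls in DMS and 13 lower in PBS, with medians of -0.51 and -0.83.

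SDH, the enzyme that uses the added succinate, had no member past 2-fold in DMS (0 of 8). SDHA, the catalytic flavoprotein, stood at 149 and 84.8 FPKM in DMS and 142 and 60.6 FPKM in PBS. SDHB, the iron-sulfur subunit, stood at 127 and 80.9 FPKM in DMS and 125 and 51.0 FPKM in PBS. Both were lower in the knockdown than in the control in either medium, and their knockdown levels were higher in DMS than in PBS. The membrane anchors SDHC (50.7 FPKM in control and 40.7 FPKM in knockdown in DMS) and SDHD (81.5 and 60.6 FPKM) had log2 ratios of -0.31 and -0.42. Among the assembly factors SDHAF3 was at -0.73, SDHAF1 at -0.41, SDHAF2 at 0.11 and SDHAF4 at 0.17. These values carry no replicate error, and none of the 8 met the fold that was set.

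SKP2, an F-box protein that brings cell cycle inhibitors to a ubiquitin ligase for degradation, stood at 33.9 and 18.6 FPKM in DMS and 33.1 and 10.9 FPKM in PBS (log2 ratio -0.83 in DMS). Its cofactor CKS1B, which helps SKP2 to bind CDKN1B, was the 1 member of 11 called lower (192 and 89.9 FPKM). The scaffold subunits were closer to control, with SKP1 at -0.36, CUL1 at -0.28 and RBX1 at -0.22. Of the CDK inhibitors that SKP2 targets, CDKN1B stood at 4.10 and 7.54 FPKM (0.74), CDKN1A at 80.6 and 70.6 FPKM (-0.19) and CDKN1C at 4.91 and 2.84 FPKM (-0.62). These are mRNA levels, whereas the ligase acts on protein. The 7 sirtuins, NAD-dependent deacylases, had 0 calls and a median of 0.17. SIRT3, the main mitochondrial deacetylase, stood at 10.9 and 8.71 FPKM in DMS and 9.72 and 7.27 FPKM in PBS, and SIRT7, a nucleolar member, had the highest ratio of the 7 (0.61).

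Genes of carbon metabolism outside the mitochondria lay mostly below control. Of 30 glycolysis and pentose phosphate genes 4 were lower and 1 higher, beside 3.56% lower and 9.62% higher of all genes, with a median of -0.52. LDHB, a lactate dehydrogenase subunit, stood at 948 FPKM in control and 463 FPKM in knockdown, the pentose phosphate isomerase RPIA was at -1.02 and SLC16A1, which exports lactate, was at -1.01. SLC2A3, a high-affinity glucose transporter, was higher (2.39 and 12.9 FPKM). Of 31 lipid synthesis genes 4 were lower and 0 higher. SCD, which desaturates fatty acids, stood at 151 FPKM in control and 63.9 FPKM in knockdown, the fatty acid synthase FASN at 95.04 and 41.0 FPKM, and ACACA, which makes malonyl-CoA, at 19.6 and 8.61 FPKM.

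Genes of the dividing cell lay below control. Of 45 DNA replication genes 12 were lower and all 45 lay below 0, with a median of -0.89 (-1.31 in PBS). GINS2, part of the replicative helicase, stood at 103 FPKM in control and 45.0 FPKM in knockdown, and the origin factors ORC1 and CDC6 were at -1.14 and -1.11. Of 43 G2 and mitosis genes 9 were lower and all 43 lay below 0, with a median of -0.77. PLK1, a mitotic kinase, stood at 116 FPKM in control and 52.2 FPKM in knockdown, UBE2C, which works with the anaphase-promoting complex, at 219.8 and 99.9 FPKM, and the checkpoint gene MAD2L1 was at -1.10. In the G1/S list the phosphatase CDC25A (-1.12) and the kinase CDK4 (183 and 89.2 FPKM) were lower, and RB1, the brake on E2F factors, was higher (20.4 and 46.0 FPKM). DNA repair genes had a median of -0.52, with the uracil glycosylase UNG at -1.24, the base excision enzyme NTHL1 at -1.12, and the damage kinase ATM higher at 1.53.

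**Figure D3:**
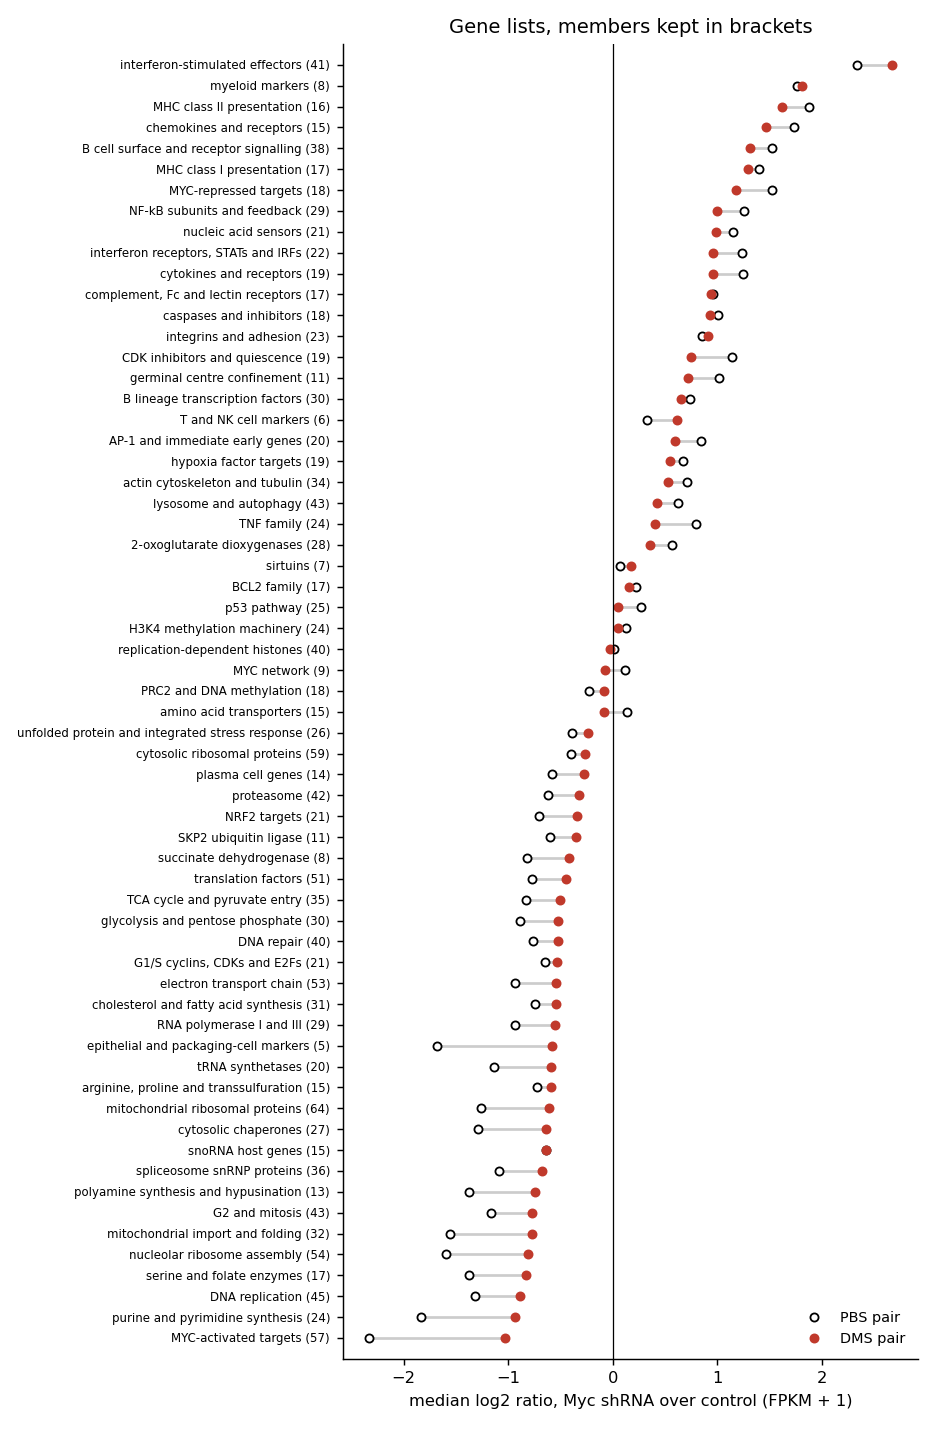
Median log2 ratio of Myc shRNA over control for all but 1 of the 63 gene lists in the DMS pair (filled) and the PBS pair (open), with the number of members kept in brackets. In 56 of the 63 lists the DMS median is nearer 0 than the PBS median, and the interferon-stimulated effectors are among the 7 lists where it is further from 0.

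Targets that MYC represses and genes of quiescence lay mostly above control. Of 18 MYC-repressed targets kept, 10 were higher and 0 lower, against 9.62% of all genes higher, with a median of 1.18 (1.52 in PBS). Among the 10, NDRG1 (0.374 and 2.78 FPKM) passed the filter through its knockdown levels and was bound to be higher. TXNIP, which binds thioredoxin and limits glucose uptake, stood at 52.6 and 358 FPKM in DMS and 79.0 and 498 FPKM in PBS, and SAT1 at 11.2 and 128 FPKM in DMS and 24.7 and 169 FPKM in PBS. In these genes the DMS control was the lowest of the 4 libraries and the PBS knockdown the highest. The 1 MYC-repressed target below 0 was the CDK inhibitor CDKN1A (-0.19). Of 19 CDK inhibitor and quiescence genes 8 were higher, with a median of 0.75. The CDK inhibitors CDKN1A, CDKN1B (0.74) and CDKN1C (-0.62) were not past 2-fold. YPEL5 stood at 8.84 FPKM in control and 51.5 FPKM in knockdown, YPEL3, a gene linked to senescence, was at 2.25, and KLF2, a quiescence factor of lymphocytes, was at 1.93. The p53 pathway lay near control, with a median of 0.06 that turns to -0.05 with the values as deposited and with 15 members above 0 and 10 below. Of its 25 members 3 were higher, a share near the 9.62% of all genes: the death receptor FAS (2.78 and 11.3 FPKM), TP53INP1 (1.38) and ZMAT3 (1.22).

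The interferon-stimulated effectors formed the highest list. Of 46 members found, 41 passed the filter and 5 did not, and the 41 were each higher in the knockdown in DMS, with a median log2 ratio of 2.68 (2.34 in PBS, also 41 higher). They were led by IFI27, a mitochondrial protein induced by type I interferon, at 0.574 and 102 FPKM in DMS and 15.8 and 182 FPKM in PBS. IFI6, an interferon-induced membrane protein, stood at 44.3 and 741 FPKM in DMS and 117 and 948 FPKM in PBS, and IFIT1, which binds foreign RNA caps, stood at 3.77 and 61.0 FPKM in DMS and 10.9 and 82.7 FPKM in PBS. In all of these the DMS control was the lowest library and the PBS knockdown the highest, so the larger ratio in DMS went with a lower control level and not with a higher knockdown level. The joint row of IFI44 and IFI44L had a ratio of 4.40, SAMD9L of 3.74, and RSAD2, the antiviral enzyme viperin, of 3.66 (0.297 and 15.4 FPKM). RSAD2 and its neighbour CMPK2 (3.52) share 1 span in the tables.

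The core of the interferon-response element, bound by IRF and STAT complexes, was searched as GAAA, any 2 bases and GAAA again, on both strands in the same promoter windows. It was found in 23 of 34 promoters of the interferon list (67.6%) and in 73 of 796 promoters of genes higher in DMS (9.17%). The kept members of the list were all called higher, so these 2 sets overlap. The core was found in 5 of 322 promoters of genes lower (1.55%) and in 3.03% of the promoters of all genes compared (3.65% over the whole table). Shown are the 3 list members with the highest ratios that hold it, IFI27 (chr14:94110486-94110785, plus strand), IFI6 (chr1:27672143-27672442, minus strand) and IFIT1 (chr10:89392373-89392672, plus strand), GRCh38.p14, 5′ to 3′ on the gene's strand, with each match in capitals, where a match on the other strand reads TTTC, 2 bases and TTTC:
IFI27: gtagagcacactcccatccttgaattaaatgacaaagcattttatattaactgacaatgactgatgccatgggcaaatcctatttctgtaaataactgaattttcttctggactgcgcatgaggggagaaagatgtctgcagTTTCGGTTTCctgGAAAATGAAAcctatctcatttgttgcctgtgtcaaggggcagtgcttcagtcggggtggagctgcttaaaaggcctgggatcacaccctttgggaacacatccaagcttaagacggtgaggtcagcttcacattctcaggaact
IFI6: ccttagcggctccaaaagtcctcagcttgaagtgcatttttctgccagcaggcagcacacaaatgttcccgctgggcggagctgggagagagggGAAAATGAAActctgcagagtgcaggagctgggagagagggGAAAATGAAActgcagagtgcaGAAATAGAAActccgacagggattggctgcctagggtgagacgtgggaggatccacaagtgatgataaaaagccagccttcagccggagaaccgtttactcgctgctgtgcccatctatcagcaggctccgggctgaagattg
IFIT1: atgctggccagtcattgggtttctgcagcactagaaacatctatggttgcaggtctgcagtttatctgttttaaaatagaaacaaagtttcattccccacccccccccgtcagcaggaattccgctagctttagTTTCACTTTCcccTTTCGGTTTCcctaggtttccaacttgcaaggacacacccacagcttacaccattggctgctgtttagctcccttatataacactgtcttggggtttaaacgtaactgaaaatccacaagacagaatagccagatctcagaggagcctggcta
The matches start 108 and 95 bases before the start site of IFI27, 156, 115 and 93 bases before that of IFI6, and 116 and 103 bases before that of IFIT1. These are letters in a window of sequence and no binding was measured.

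Genes that carry the interferon signal and genes that sense nucleic acids lay mostly above control too. Of 22 receptors, STATs and IRFs kept, 9 were higher and all 22 lay above 0, with a median of 0.96. STAT2, which relays type I interferon, stood at 12.4 and 75.5 FPKM in DMS and 19.3 and 104 FPKM in PBS, and IRF7, the factor that amplifies type I interferon, at 15.4 and 155 FPKM in DMS and 31.1 and 231 FPKM in PBS. In both genes the knockdown stood above both controls in either medium. Of 21 nucleic acid sensors 10 were higher. ZBP1, a sensor of Z-form nucleic acid, stood at 9.13 FPKM in control and 120.04 FPKM in knockdown, DDX58, which encodes the RNA sensor RIG-I, at 2.53 and 29.9 FPKM, and IFIH1, which encodes MDA5, at 2.93 and 23.1 FPKM.

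**Figure D4:**
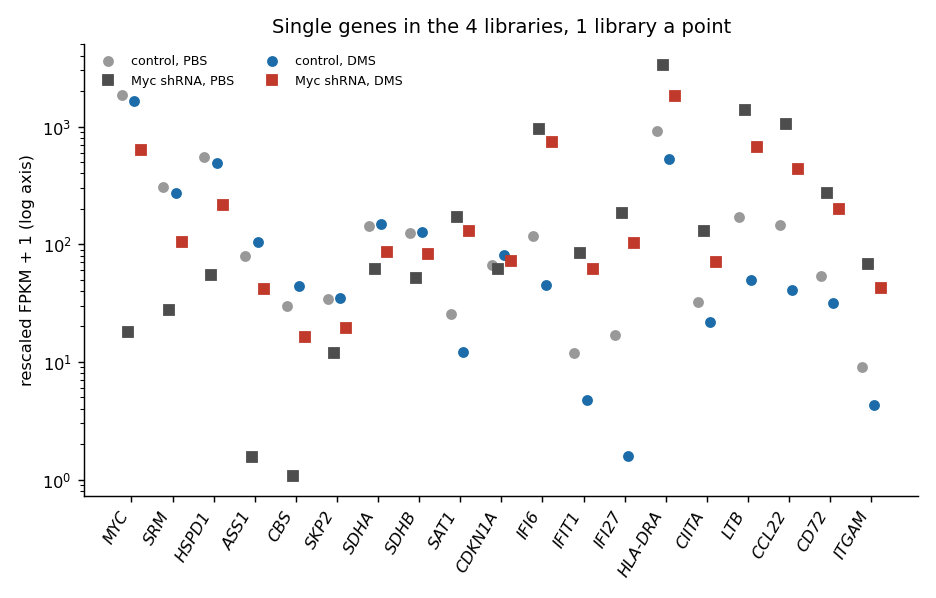
Rescaled FPKM plus 1 (vertical, log axis) of single genes in the control and Myc shRNA libraries in PBS and in DMS, 1 library a point. For MYC, SRM, HSPD1, ASS1 and CBS the Myc shRNA library in DMS lies between the controls and the Myc shRNA library in PBS, and for the interferon genes IFI6, IFIT1 and IFI27 the DMS control is the lowest point.

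Genes for antigen presentation lay above control as a group. Of 16 MHC class II genes kept, 12 were higher and 0 lower, with a median of 1.62 (1.88 in PBS). The joint row of HLA-DQA1 and HLA-DQA2 had a ratio of 2.22, HLA-DMB, which loads peptides onto class II, stood at 36.0 FPKM in control and 160.2 FPKM in knockdown, and HLA-DPB1 at 37.2 and 159 FPKM. The class II antigen chain HLA-DRA stood at 528 and 1837 FPKM in DMS and 918 and 3368 FPKM in PBS and the class II transactivator CIITA at 20.9 and 69.0 FPKM in DMS and 31.3 and 128 FPKM in PBS; these 2 were chosen after their values were seen. Of 17 MHC class I genes 9 were higher, with a median of 1.30. HLA-E, a ligand of NK cell receptors, stood at 62.6 FPKM in control and 343 FPKM in knockdown, and HLA-B at 490.1 and 1378 FPKM. HLA genes are near-identical to one another and vary between people, and genes such as HLA-DMB, with 8 rows, had several rows that were summed, so their single levels are uncertain.

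Genes for inflammatory signals lay mostly above control. Of 15 chemokines and receptors kept, 9 were higher, with a median of 1.47. CCL17 and CCL22, ligands of the receptor CCR4, stood at 7.95 FPKM in control and 96.1 FPKM in knockdown and at 39.99 and 436 FPKM, and CCR6, a receptor on B cells, at 1.78 and 16.9 FPKM. In the TNF family 10 of 24 members were higher, with a median of 0.40. LTB, lymphotoxin beta, stood at 48.7 and 663 FPKM in DMS and 170.3 and 1370.1 FPKM in PBS, TNF at 0.656 FPKM in control and 16.9 FPKM in knockdown and TNFRSF14, a receptor often lost in B cell lymphoma, at 3.57 and 23.7 FPKM. Of 29 NF-kB subunits and feedback genes 15 were higher, with a median of 1.00. TRAF1, a receptor adaptor, stood at 13.3 FPKM in control and 90.8 FPKM in knockdown, TNFAIP2 at 12.2 and 76.7 FPKM, and TNFAIP3, which shuts NF-kB off, at 2.004 and 15.7 FPKM. An NF-kB sequence, GGGA, any 1 base and then TTTCC, on either strand, was found in 5 of 25 promoters of this list (20%). It was found in 16 of 796 of genes higher in DMS (2.01%), a set that overlaps the list. The sequence was found in 0 of 322 of genes lower and in 0.555% of the promoters of all genes compared (0.579% over the whole table). LTB is the gene with the highest ratio in the TNF family that holds it, 86 bases before its start site (chr6:31582376-31582675, minus strand, GRCh38.p14), here on the other strand, where it reads GGAAA, 1 base and TCCC, in capitals:
LTB: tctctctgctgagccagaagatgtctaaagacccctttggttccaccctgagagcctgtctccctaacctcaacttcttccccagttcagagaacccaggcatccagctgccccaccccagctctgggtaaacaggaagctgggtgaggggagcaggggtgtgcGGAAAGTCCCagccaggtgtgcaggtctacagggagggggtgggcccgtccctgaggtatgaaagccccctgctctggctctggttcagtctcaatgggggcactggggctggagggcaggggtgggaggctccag

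AP-1 and immediate early genes had a median of 0.60, and 5 of 20 were higher, with KLF2 at 1.93, the phosphatase DUSP5 at 1.51 and JUN at 2.44 and 8.70 FPKM. Among 19 cytokines and receptors 9 were higher. EBI3, a subunit shared by interleukins 27 and 35, stood at 18.8 FPKM in control and 133 FPKM in knockdown, IL16 at 8.15 and 30.1 FPKM and the interleukin 10 receptor chain IL10RA at 8.83 and 29.2 FPKM.

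Genes of the mature B cell surface lay mostly above control. Of 38 members kept, 25 were higher and 0 lower, with a median of 1.31 (1.52 in PBS). CD72, an inhibitory coreceptor, stood at 30.7 and 199 FPKM in DMS and 53.2 and 269 FPKM in PBS, the Fc receptor-like genes FCRL5 and FCRL1 at 2.64 and 2.18, and MS4A1, the target of rituximab, at 157 and 646 FPKM in DMS and 247 and 941 FPKM in PBS. Among 30 lineage factors 12 were higher and 0 lower, with a median of 0.65. LMO2, a germinal centre factor, stood at 2.45 FPKM in control and 20.7 FPKM in knockdown and MEF2C at 8.05 and 24.97 FPKM. In the list for confinement to the germinal centre RGS19 (1.50) and the migration receptor GPR183 (1.31) were higher and RGS16 was lower (26.7 and 12.1 FPKM). RGS1 (0.0782 and 1.44 FPKM) passed the filter through its knockdown levels and was bound to be higher. Plasma cell genes had a median of -0.28, with 2 of 14 lower, the endoplasmic reticulum isomerase FKBP11 (196 and 88.2 FPKM) and SDC1, which encodes the plasma cell marker CD138 (-1.01). The cytidine deaminase genes APOBEC3F (1.19) and APOBEC3D (1.15) were higher, while UNG, which removes uracil from DNA, was lower (80.5 and 33.5 FPKM).

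**Figure D5:**
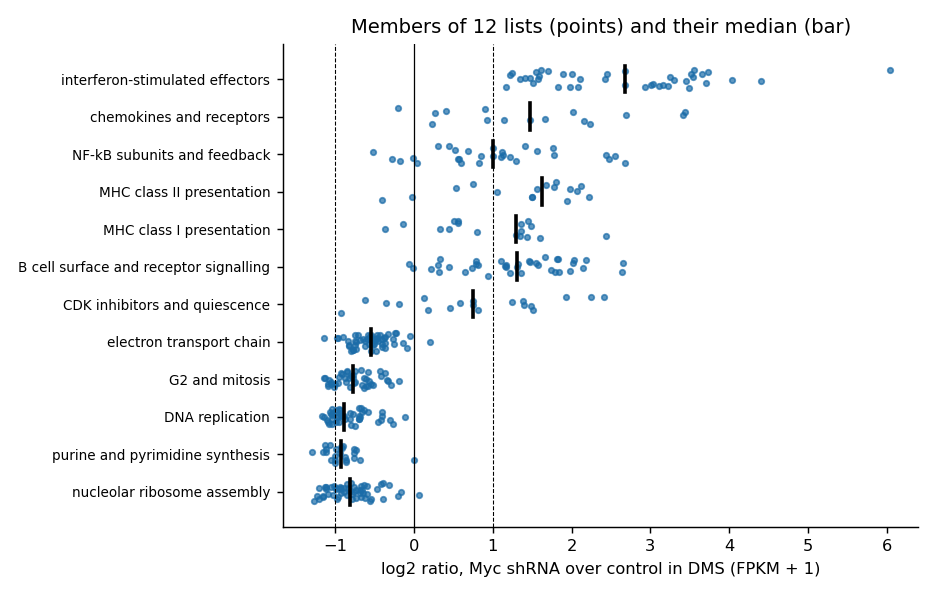
Log2 ratio of Myc shRNA over control in DMS for each kept member of 12 lists (points), with the list median (bar) and dashed lines at a 2-fold difference; points are spread vertically only to show them apart. The interferon effectors run from 1.17 to 6.04, whereas the DNA replication genes run from -1.17 to -0.11.

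Genes of adhesion and of cells outside the B lineage were among those higher. Of 23 integrin and adhesion genes 11 were higher, with a median of 0.92. ITGAM, the integrin alpha chain CD11b, stood at 3.27 and 41.7 FPKM in DMS and 8.13 and 67.0 FPKM in PBS. ITGAX, which encodes CD11c, stood at 0.379 and 4.61 FPKM. It passed the filter through its knockdown levels and was bound to be higher, so the count of 11 speaks only for the genes that passed. Of the complement, Fc and lectin receptors 6 of 17 were higher, beside 9.62% of all genes, led by CFP, properdin, at 2.197 and 15.5 FPKM. The receptor gene LAIR1 (0.427 and 3.15 FPKM) passed the filter through its knockdown levels and was bound to be higher. ITGAM is also a myeloid marker, and LYZ, lysozyme, another one, stood at 4.19 and 33.3 FPKM. The myeloid markers did not all rise. AIF1, with the highest control level of them, stood at 76.2 and 77.0 FPKM in DMS and 97.9 and 74.3 FPKM in PBS. CEBPB was below control, at 13.2 and 9.36 FPKM in DMS and 15.6 and 5.71 FPKM in PBS. The markers MNDA (0.2998 and 11.2 FPKM) and TYROBP (0.109 and 1.31 FPKM) passed the filter through their knockdown levels and were bound to be higher, so no count of this list is given. The summed level of the 18 myeloid markers was 104 FPKM in control and 210 FPKM in knockdown in DMS, and 144 and 276 FPKM in PBS, while MPO, ELANE, S100A8 and S100A9 were listed at 0 in all 4 libraries and 10 of the 18 lay under 1 FPKM in both DMS libraries. The 12 epithelial and packaging-cell markers summed to 664 and 749 FPKM in DMS, mostly VIM and TUBB3, the latter lower at 332 and 143 FPKM, with KRT8 and KRT18 listed at 0. The 18 T and NK cell markers summed to 16.1 and 26.0 FPKM in DMS. The part of other cell types in these results was not tested.

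Survival and death genes lay on both sides of control. Of 17 BCL2 family genes 5 were higher and 0 lower, with a median of 0.16. BCL2A1, an antiapoptotic target of NF-kB, stood at 4.20 FPKM in control and 44.6 FPKM in knockdown, BCL2 at 2.17 and 8.29 FPKM and HRK, a proapoptotic BH3-only gene, at 0.828 and 5.66 FPKM. Among 18 caspases and inhibitors 7 were higher, with BIRC3 at 2.44, CASP10 at 1.76 and CASP4 at 1.70. BIRC5, survivin, which also serves in mitosis, was lower (64.0 and 29.7 FPKM).

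Lysosome and autophagy genes had a median of 0.42, with 6 of 43 higher, a share not far from the 9.62% of all genes. They were led by the cathepsins CTSH (53.7 and 170.2 FPKM) and CTSZ (95.3 and 299 FPKM). In the cytoskeleton list 6 of 34 were higher, beside the same 9.62% of all genes. The actin bundler FSCN1 stood at 17.1 FPKM in control and 93.6 FPKM in knockdown and the myosin MYO1G at 47.3 and 162 FPKM. NRF2 targets, which respond to electrophiles, gave 0 calls in 21 members and a median of -0.34. Hypoxia factor targets had a median of 0.55 with 4 of 19 higher. ANKRD37, one of them, stood at 2.25 and 10.4 FPKM in DMS and 4.13 and 6.97 FPKM in PBS, so that its ratio was 1.81 in DMS and 0.64 in PBS, and BHLHE40 stood at 18.8 and 64.0 FPKM in DMS and 26.8 and 90.8 FPKM in PBS.

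Chromatin genes, the setting of the study's question, were mostly near control. Over all genes 9.62% were higher and 3.56% lower. The counts of the H3K4 list, the dioxygenases and the PRC2 and DNA methylation genes were near or under these shares. The H3K4 methylation machinery had 1 of 24 members higher, the demethylase KDM1B (3.22 and 7.73 FPKM), and 1 lower, the methyltransferase SETD7 (2.44 and 0.717 FPKM), with a median of 0.05 that turns to -0.05 with the values as deposited. Of 28 dioxygenases that use 2-oxoglutarate, which succinate can inhibit, 1 was higher, TET2, which oxidises methylcytosine (1.75 and 5.45 FPKM), and the median was 0.36. Among 18 PRC2 and DNA methylation genes 2 were higher, PHF1 (4.07 and 14.5 FPKM) and the joint row of DNMT3L and ICOSLG (1.23). The joint row cannot tell the level of DNMT3L from that of ICOSLG, so this call may not be of a DNA methylation gene. In the same list 1 was lower, UHRF1, which guides maintenance methylation (47.8 and 20.9 FPKM). Of 40 replication-dependent histone genes kept, 10 were higher and 7 lower. HIST1H2AC stood at 12.8 FPKM in control and 90.1 FPKM in knockdown and HIST1H2AH at 4.86 and 0.346 FPKM. Histone genes are short and near-identical, and most of their mRNA lacks a poly(A) tail, so that their single values are uncertain. Of 15 small nucleolar RNA host genes 3 were lower, DANCR (577 and 241 FPKM in DMS and 499 and 34.4 FPKM in PBS), SNHG16 (-1.21) and SNHG8 (-1.06).

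A small set of genes was past 2-fold in DMS and not in PBS. There were 42 such genes, 35 higher and 7 lower, and 33 of the 35 had a log2 ratio above 0.5 in PBS too, with a median of 0.88. In the set of 7 lower genes ALG14, which acts in N-linked glycosylation, stood at 17.7 and 5.64 FPKM in DMS and 11.2 and 8.75 FPKM in PBS, and the nucleoside transporter SLC29A2 at 23.7 and 10.8 FPKM in DMS and 14.3 and 8.31 FPKM in PBS. ALG14 was highest in the DMS control and lowest in the DMS knockdown. On the higher side CRYBB1 stood at 0.892 and 5.84 FPKM in DMS and 0.482 and 1.75 FPKM in PBS, and passed the filter through its knockdown levels. BIRC2, an inhibitor of apoptosis, stood at 5.26 and 12.6 FPKM in DMS and 5.96 and 12.02 FPKM in PBS. The mitochondrial fusion gene MFN1 stood at 4.44 and 10.6 FPKM in DMS and 5.42 and 11.8 FPKM in PBS. LINC01405 and the joint row of HIST1H2BO and OR2B6 lay below 0 in PBS, at levels under 4 FPKM. SLC29A2, CRYBB1, BIRC2, MFN1 and LINC01405 were named after their values were seen. Whether the ratios differ between the media beyond replicate error was not tested, since each group has 1 library.

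Among genes with a mean of 5 FPKM or more, those whose DMS ratio lay furthest below the PBS ratio included the histone gene HIST1H4E (7.31 and 6.46 FPKM in DMS and 3.91 and 13.3 FPKM in PBS), the noncoding LINC01358 (12.7 and 34.5 FPKM in DMS and 8.08 and 61.5 FPKM in PBS) and MT1F, a metal-binding metallothionein (1.53 and 6.12 FPKM in DMS and 2.59 and 21.6 FPKM in PBS). In HIST1H4E the knockdown was below control in DMS and above it in PBS. ARSB, a lysosomal sulfatase, stood at 4.64 and 6.06 FPKM in DMS and 4.62 and 14.3 FPKM in PBS. Genes called higher in PBS with at least 5 FPKM in both control libraries were put in classes of their PBS ratio. Raised genes with a lower control level, such as IFI27, are not in these classes. In the classes below 2.5 the DMS median lay a little under the PBS median. The 471 genes with a PBS ratio of 1 to 1.5 had medians of 1.22 in PBS and 0.94 in DMS. The 242 genes at 1.5 to 2 had 1.72 and 1.47, and the 67 genes at 2 to 2.5 had 2.18 and 2.07. The 29 genes at 2.5 or more had a median of 2.71 in PBS and 3.03 in DMS, with 20 of the 29 larger in DMS.

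Neighbouring genes were in some places higher together. On chromosome 1 (157483167 to 158946849, hg19) 9 kept genes in a row were higher, FCRL4, FCRL5, FCRL3, FCRL2, FCRL1, CD1D, CD1C, MNDA and PYHIN1, with a median log2 ratio of 1.98. Genes under the filter are skipped in such a run. MNDA passed the filter through its knockdown levels and was bound to be higher, so the runs speak only for the genes that passed. CD1C, which presents lipids, stood at 0.253 FPKM in control and 14.9 FPKM in knockdown. On chromosome 6 the run of LTA, TNF, LTB, LST1 and NCR3 (31539761 to 31560762) had a median of 2.74, and the class II run from the joint row of GPSM3 and NOTCH4 to HLA-DQB1 (32158543 to 32714664) a median of 1.87. The chromosome 10 cluster of IFIT2, IFIT3, IFIT1 and IFIT5 (91061706 to 91180759) had the highest median of the runs, 3.35. SP110, SP140, SP140L and SP100 on chromosome 2 (231033645 to 231410317) had a median of 1.77. On chromosome 6 as a whole 82 of 564 genes were higher, 14.5%, and on the other chromosomes between 6.54% and 11.9%.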

How the data were processed

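RNA-seq of 4 CA46 libraries was used, 1 in each group. Per the labels' protocols, RNA came from TRIZOL lysates and entered a NEBNext Ultra library kit. Each table the authors deposited holds 1 column of FPKM for 31016 rows. The unit was read from fractional values and Cuffdiff column names, although the table titles speak of read counts. Per the submitters' processing notes Cuffdiff 2.2.1, TopHat2 2.1.0, MACS 1.4.2, Bowtie2 2.2.6, fastp and bcl2fastq were used on hg19 and dm6, with no roles given. The annotation, strand setting and scaling between libraries were all not given in the sources used here.

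Tables were joined on gene and locus. Rows with no gene name (3919) and small RNA symbols (2045) were left out, the FPKM of symbols with several rows (691) was added up, and 506 joint features were kept. In 30 rows the name had become a date; these are never named. A few results are not reported here. RefSeq matched 22085 of 23188 symbols, and 9010 of the 11178 genes kept had a RefSeq promoter. Each library was scaled against the mean of the 4 with trimmed log2 ratios (trimming 30% by ratio and 5% by level; factors 1.05 and 1.04 for the controls and 0.953 and 0.962 for the knockdowns, PBS before DMS). Ratios are log2((knockdown + 1)/(control + 1)). Depth was read from the steps of 20 to 39 low genes per library, so it is approximate and no counting interval was computed; the FPKM step of the knockdown over that of the control in DMS was 1.04.

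Named genes are MYC and the SDH, SKP2 and sirtuin lists, the 15 highest and 15 lowest ratios with at least 5 FPKM, up to 3 called members of each list in each direction, the 10 genes furthest above and below PBS, and the 10 with the lowest percent of control. Genes, the 63 lists and the rules were chosen with earlier results of these data known. Scripts ran in Python 3.11.15 with numpy 2.4.6 and pandas 2.3.3 and were tested on simulated data. Other scalings, filters, pseudocounts and folds were tried.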

Additional observations from a re-analysis of the deposited data

Results flagged for a closer look

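In 3 gene lists the median log2 ratio had opposite signs in the 2 media, all close to 0. The MYC network had a median of -0.076 in DMS and 0.11 in PBS, the amino acid transporters -0.083 and 0.13, and the replication-dependent histones -0.028 and 0.01. HIST1H4E, a histone H4 gene, had a log2 ratio of -0.15 in DMS and 1.54 in PBS. These differences between media were not tested.

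Rows with no gene name, which enter no comparison, took 22.4% of the summed FPKM in the Myc shRNA library in DMS, against 14.3% in the control library in DMS and 25.2% and 15.7% in PBS. The most abundant of them (chromosome 14, 106725316 to 107170240, hg19) stood at 90110.2 rescaled FPKM in control and 174797 in knockdown in DMS.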

How the results depend on the processing

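The counts of 1075 genes higher and 398 lower moved by more than 1.5 times in few settings. A pseudocount of 5 FPKM gave 541 higher and 163 lower, and a 1.5-fold rule gave 2239 higher and 1911 lower. The values as deposited gave 674 lower. MYC stood between 35.1% and 37.9% of control over the scalings tried. List medians that turned sign were those of the p53 pathway (0.06 to -0.05) and the H3K4 methylation machinery (0.05 to -0.05), both with the values as deposited, and of the replication-dependent histones (-0.03 to 0.07) when genes were filtered over the 2 DMS libraries alone. Of 215 named genes none changed sign past the 2-fold line in any setting. With a pseudocount of 5 FPKM 45 of them fell back under 2-fold, with the values as deposited 2, with the median ratio set to 0 2, and with rows kept apart 1.

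No paired analysis was possible because each group has 1 library and the labels give no replicate numbers. Depth limits genes near 1 FPKM, for which 1 FPKM rests on about 24 fragments per kilobase, and no spread between replicates can be given for any gene.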

Other observations

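The balance of the calls moved with expression level. In the sixth of genes with the lowest mean, 1.00 to 3.29 FPKM, the median log2 ratio in DMS was 0.17 and 0.913% of genes were lower. In the sixth with the highest mean, 49.6 FPKM and above, the median was -0.26 and 6.98% were lower, while 11.6% were higher. Long noncoding RNA genes were higher in 54 of 435 cases (12.4%) and lower in 18 (4.14%), and protein-coding genes higher in 9.34% and lower in 3.59% of 10386.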
